A study of Mus musculus with 100 samples.

Results

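The binding of 8 transcriptional regulators and the deposition of H3K27ac at 9 complement genes was examined in mouse macrophages. The genes were C1qa, C1qb and C1qc, C2, Cfb and C3, the receptor genes C5ar1 and C3ar1, and Cfp. Every region that the deposited tables assign to one of them by nearest start site was kept, which gave 275 of 610301 regions over 15 tables. Regions whose centres lay within 500 bp of each other were joined, and the 275 regions then formed 45 sites. C3ar1 had 10 sites, C5ar1 8, C1qb 6, C1qc, C2 and Cfp 4 each, and C1qa, C3 and Cfb 3 each. The assignment is by distance only, and a site near a gene need not act on it. Regions of a gene, and of neighbouring genes, come from the same libraries and are not replicates.

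Complement is a cascade of plasma proteins that marks microbes and dying cells for removal. C1qa, C1qb and C1qc encode the chains of C1q, the recognition unit of the classical pathway, and resident macrophages are a main source of it. C2 and its neighbour Cfb (factor B) encode the proteases of the classical and the alternative C3 convertase, and C3 is the protein on which the pathways converge. C5ar1 and C3ar1 encode the receptors for the anaphylatoxins C5a and C3a, and Cfp encodes properdin, which stabilises the alternative convertase. NCoR is a corepressor that works with the histone deacetylase HDAC3, PGC1b and p300 are coactivators, p65 is a subunit of NF-kB, Fosl2 a member of AP-1, PU.1 the transcription factor that defines the myeloid lineage, and ERK1 a kinase. H3K27ac, acetylated lysine of histone H3, marks active promoters and enhancers.

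ChIP-seq had been done in biological replicates, 2 libraries per group, in bone marrow-derived macrophages (BMDMs) from mice 8 to 12 weeks old, named C57Bl6 in the labels,, grown for 7 days in M-CSF and serum starved for 12 h. The labels do not say whether the 2 libraries of a group came from separate animals, so p-values measure the spread between these libraries. Wild type BMDMs received vehicle (Veh) or KLA, the TLR4 agonist Kdo2 lipid A, at 100 ng/mL for 6 h, and were precipitated for NCoR, HDAC3, p65, Fosl2, PU.1, PGC1b, ERK1 or p300. The p300 libraries with treatment Veh are described in the labels as 0 h of KLA, so whether they received vehicle for 6 h is not known. PGC1b was measured a second time with DMSO_Veh, DMSO_KLA and ERKi_KLA (an ERK inhibitor), and NCoR once more with ERKi_KLA. H3K27ac was measured with Veh and KLA in NCoR flox/flox (WT) and NCoR flox/flox, LysMCre (NKO) BMDMs, and in PGC1b flox/flox (Pgc1b flox) and PGC1b flox/flox, LysMCre (Pgc1b flox Cre) BMDMs. LysMCre acts in myeloid cells, and all 4 of these genotypes carry the floxed alleles. H3K27ac was also measured in wild type BMDMs with DMSO_Veh, DMSO_KLA and RGFP966_KLA, RGFP966 being an HDAC3 inhibitor. ERK1 and p300 were further measured in bone marrow cells of wild type mice, grown for 3 days in M-CSF to osteoclast precursors. These were taken before (Day0) and after (Day4) 4 days with M-CSF and RANKL, the cytokine that drives osteoclast formation. The 30 input libraries were not analysed here.

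The 70 libraries held 4.30 to 21.5 M tags, of which 2.79 to 52.8% lay in the regions of their table. All values below are tags per 10 M tags of the library (tags per 10 M). Both libraries of each group are given in the order of their replicate numbers. In the p300 table all 8 macrophage markers had a region, with summed promoter levels of 1108 to 1150 tags per 10 M with Veh and 1291 to 1293 with KLA, and no T cell, B cell or erythroid marker had one. Of 5 neutrophil markers 2 had a region, and their summed level was 14.4 to 26.3 with Veh and 185 to 205 with KLA. Of 4 dendritic cell markers 1 had a region, at 59.1 to 75.2 with Veh and 101 to 111 with KLA, and 5 of 7 osteoclast markers summed to 210.0 to 212 with Veh and 217 to 224 with KLA. In the H3K27ac table of the PGC1b experiment 2 of 3 erythroid markers had a region. They summed to 56.1 to 56.7 with Veh and 18.6 to 24.5 with KLA in Pgc1b flox, and to 32.4 to 39.1 and 13.0 to 21.7 in Pgc1b flox Cre. In the H3K27ac table of WT and NKO only 4 of 8 macrophage markers and 1 of 3 erythroid markers had a region. The part of other cells in the results was not tested. In bulk chromatin, fewer cells of a type and less signal per cell cannot be told apart. The second KLA library of HDAC3 (46.5% of tags in regions) and the first of Fosl2 (4.30 M tags, 16.4% in regions) stood apart from their partners.

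In the mm10 genome the members lie on chromosomes 4, 6, 7, 17 and X, all on the minus strand. C1qa (chr4:136895916-136898844), C1qc (chr4:136889801-136892936) and C1qb (chr4:136880126-136886200) are neighbours. C2 (chr17:34862602-34882100) ends just before Cfb (chr17:34856374-34862514), while C3 (chr17:57203967-57228136) lies apart on the same chromosome. C3ar1 is at chr6:122847140-122856157, C5ar1 at chr7:16246743-16259540 and Cfp at chrX:20925454-20931555. Distances below are those of the deposited tables, from a start site of the gene to the centre of the region, positive into the gene. For C5ar1 the tables use the start sites of transcripts 202 bp apart, so that its +84 is counted from the outer start and its +1357 and +4866 from the inner one.

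RefSeq promoter sequences (GRCm38.p6, the assembly behind mm10) matched 6 of the 9 genes. There was no entry for C1qa, Cfb and C2. The 250 bases before the start are shown for C3, C3ar1 and C1qc, whose windows held a searched motif, written on the gene's strand from 5′ to 3′, with matches in capitals. The window of C5ar1 also held one, but it precedes the inner start of that gene and lies mostly inside its longer transcript, and is not shown.
C3, chr17:57228137-57228386: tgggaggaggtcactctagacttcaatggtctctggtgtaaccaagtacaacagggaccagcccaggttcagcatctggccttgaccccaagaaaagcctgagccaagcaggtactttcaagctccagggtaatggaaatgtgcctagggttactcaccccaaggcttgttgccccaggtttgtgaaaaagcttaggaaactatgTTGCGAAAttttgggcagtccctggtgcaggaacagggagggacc
C3ar1, chr6:122856158-122856407: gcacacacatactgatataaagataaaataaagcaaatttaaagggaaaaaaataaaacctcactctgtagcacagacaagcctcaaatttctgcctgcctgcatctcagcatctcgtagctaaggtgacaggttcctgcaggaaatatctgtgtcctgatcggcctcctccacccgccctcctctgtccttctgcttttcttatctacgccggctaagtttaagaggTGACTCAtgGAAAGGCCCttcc
C1qc, chr4:136892915-136893164: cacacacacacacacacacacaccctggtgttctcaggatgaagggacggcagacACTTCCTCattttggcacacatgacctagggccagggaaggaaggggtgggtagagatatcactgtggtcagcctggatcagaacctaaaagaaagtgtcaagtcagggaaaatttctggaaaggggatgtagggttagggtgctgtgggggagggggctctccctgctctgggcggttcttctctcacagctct
On either strand, 7 motifs were searched. These were GGGNNTTTC and GGGNNTTCC for NF-kB, TGANTCA for AP-1, GAGGAAGT for PU.1, TTGCNNAA for C/EBP, GAAANNGAA for interferon response factors and TTCNNNGAA for STAT. The C3 promoter held TTGCNNAA, found in 10.8% of 32851 promoters. The C3ar1 promoter held TGANTCA (7.81% of promoters) next to GGGNNTTTC (4.36%), the C1qc promoter GAGGAAGT (3.20%) and the C5ar1 window GAAANNGAA (8.56%). GGGNNTTCC stood in 5.82% and TTCNNNGAA in 8.30% of promoters, and none of these 6 genes had either. The promoters of C1qb and Cfp held no match to these letters.

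Of the 14 member regions at which p65 was called higher with KLA, the 7 assigned to C3, C3ar1, C5ar1 and Cfp were searched for the same motifs, and those of C2 and Cfb were not. An NF-kB match stood in 4 of the 7, C3 -3634, C5ar1 +4866, C5ar1 +1357 and Cfp +1602, and in none of C3 -40, C3ar1 -6967 and C5ar1 +84. Of the 11 searched regions that were not called higher, 1 held such a match. With another scaling (TMM, below) none of the 4 regions with a match was called higher. C3 -40, which held no match, was the only one of the 7 still called. Whether a match goes with a rise of p65 was not tested. The 200 bases at the centre of 3 of the 4 peaks are shown as examples with a match, chosen after the search, on the plus strand of mm10.
C3 -3634, chr17:57231671-57231870: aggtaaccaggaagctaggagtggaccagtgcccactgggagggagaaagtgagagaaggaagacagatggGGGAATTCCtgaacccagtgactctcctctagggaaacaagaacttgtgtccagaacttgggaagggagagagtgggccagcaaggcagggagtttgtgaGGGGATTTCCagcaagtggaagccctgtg
C5ar1 +4866, chr7:16254373-16254572: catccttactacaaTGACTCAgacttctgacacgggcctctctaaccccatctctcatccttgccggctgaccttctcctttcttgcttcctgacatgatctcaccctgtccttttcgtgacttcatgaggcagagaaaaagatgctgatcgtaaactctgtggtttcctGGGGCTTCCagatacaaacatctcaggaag
Cfp +1602, chrX:20929854-20930053: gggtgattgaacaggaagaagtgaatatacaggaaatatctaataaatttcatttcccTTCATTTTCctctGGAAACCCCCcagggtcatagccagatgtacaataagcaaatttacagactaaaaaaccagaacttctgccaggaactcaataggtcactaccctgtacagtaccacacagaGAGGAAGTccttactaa
The intergenic peak upstream of C3 held GGGNNTTTC once and GGGNNTTCC at 2 places, with 1 pair of these matches overlapping. The peak in an intron of C5ar1 held GGGNNTTCC and TGANTCA, and the peak within Cfp held overlapping GGGNNTTTC and GGGNNTTCC, GAGGAAGT and GAAANNGAA. Among 52624 p65 peaks cut to the same length, 7.11% held GGGNNTTTC, 7.64% GGGNNTTCC, 21.7% TGANTCA, 9.57% GAGGAAGT and 11.5% GAAANNGAA. A match is a description of the sequence and not a measured binding site.

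Of the 45 sites, 12 had a region in at least 11 of the 15 tables, and 13 in 1 table. In all 15 tables a region stood at the C1qc promoter, the C3ar1 promoter and a site about 4.9 kb into C5ar1. KLA was compared with Veh for 8 factors, and a region was called when edgeR's adjusted p was under 0.05 and the change more than 2-fold. The calls of C3 and its convertase genes were higher and most of those of C1q lower, a difference between gene groups that was not tested. Over the 8 factors, C3, Cfb and C2 had 28 calls higher and 0 lower among 37 tests (75.7% and 0%). The shares of all regions, averaged over the factors with these tests as weights, were 34.0% and 11.02%. C1qa, C1qb and C1qc had 1 higher and 16 lower among 43 tests (2.33% and 37.2%), beside 25.2% and 9.15% of all regions. The receptors had 4 higher and 13 lower among 76 tests (5.26% and 17.1%), beside 25.4% and 11.1%, and Cfp 1 and 1 among 31, beside 25.1% and 11.2%. With TMM, a scaling that assumes most regions unchanged, these became 26 and 0 for C3, Cfb and C2, 0 and 17 for C1q, 0 and 19 for the receptors and 0 and 0 for Cfp. Peak lists were merged over Veh and KLA, for members as for all regions. A region with next to no tags in a group entered through the other group, and its call was set in advance. Examples are Cfb with Veh and, for p300, C1qb +6196 with KLA.

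In each of the 8 comparisons the members' share called higher lay under that of all regions. NCoR had 5 of 24 member regions higher and 4 lower, with 23.4% and 16.7% of all tested regions called in those directions. HDAC3 had 5 higher and 1 lower of 22, against 27.5% and 11.3%, p300 6 and 17 of 37, against 42.1% and 12.9%, and PGC1b 2 and 4 of 24, against 16.4% and 6.35%. For p65 14 of 26 rose and 2 fell, where 57.0% of all regions rose and 5.43% fell. Fosl2 had 1 higher and 0 lower of 17 (background 11.4% and 4.19%), PU.1 0 and 2 of 21 (4.53% and 21.7%) and ERK1 1 and 0 of 16 (10.3% and 2.53%). The median log2 fold change of member regions lay under that of all regions for NCoR (-0.55 and 0.10), HDAC3 (-0.07 and 0.27), p65 (1.07 and 1.46), p300 (-0.39 and 0.65), PGC1b (-0.26 and 0.06), ERK1 (0.08 and 0.26) and Fosl2 (-0.57 and -0.14), and a little above it for PU.1 (-0.35 and -0.41). Scaling by TMM in place of the library totals shifted the median of all regions by -1.22 for p65, -0.52 for p300, -0.28 for HDAC3, -0.22 for ERK1, -0.11 for PGC1b and 0.42 for PU.1. With TMM, p65 had 7 member regions higher and 4 lower, HDAC3 5 and 3, p300 6 and 18, Fosl2 1 and 2, PU.1 0 and 0, and ERK1 0 and 1, and the counts of NCoR and PGC1b were as before.

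C1q came down with KLA, most clearly in p300. All 10 C1q regions of p300 fell, and they did so with TMM too. At the C1qc promoter p300 stood at 346 and 329.9 with Veh and 102 and 112 with KLA (log2 fold change -1.65 ± 0.15 SE, adjusted p = 1.14e-07). The C1qb promoter gave 231 and 227 with Veh and 92.1 and 80.0 with KLA (log2 fold change -1.41 ± 0.16 SE, adjusted p = 1.91e-06). At C1qa p300 was 142 and 144 with Veh and 55.2 and 56.2 with KLA (log2 fold change -1.36 ± 0.19 SE, adjusted p = 1.48e-05). In these 3 promoters the groups were well apart and the libraries of a group nearly equal.

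Several p300 regions outside the C1q promoters had a larger fall than the promoters, a difference that was not tested. Upstream of C1qc, at -2046 and near the end of C1qa, p300 was 18.2 and 29.6 with Veh and 2.05 and 0.540 with KLA (log2 fold change -4.11 ± 0.68 SE, adjusted p = 7.18e-05). At C1qc -1243 it was 18.8 and 26.9 with Veh and 2.56 and 4.86 with KLA (log2 fold change -2.61 ± 0.56 SE, adjusted p = 0.000704), and at C1qb -1652 21.3 and 26.3 with Veh and 4.09 and 1.08 with KLA (log2 fold change -3.15 ± 0.60 SE, adjusted p = 0.000291). These were small peaks with Veh and held few tags with KLA. At C1qb +6196, just past the end of the gene, 46 tags with Veh stood against 2 with KLA, a ratio of 28.1 (95% exact interval 7.34 to 239, counting error only). Such regions entered the merged peak list through Veh, so a large fall there was set in advance. The promoters kept tags in both groups, so the sizes of these falls cannot be weighed against each other. The other p300 regions, C1qb +7414 and +1079 and C1qc +1108, fell by 1.85, 1.35 and 1.87 on the log2 scale.

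NCoR and PU.1 also fell at C1qa. NCoR at its promoter was 343 and 383 with Veh and 161 and 149 with KLA (log2 fold change -1.23 ± 0.18 SE, adjusted p = 0.000514). PU.1 was 261 and 274 with Veh and 113 and 116 with KLA (log2 fold change -1.22 ± 0.10 SE, adjusted p = 1.82e-22), a fall that TMM left at a log2 fold change of -0.81, under the 2-fold minimum. At C1qb and C1qc the NCoR and PU.1 values fell by less than 2-fold, with adjusted p of 0.0216 and 0.00476 for NCoR and 9.6e-17 and 1.97e-13 for PU.1. HDAC3 did not pass at the 3 promoters, with log2 fold changes of -0.97, -0.08 and -0.47 for C1qa, C1qb and C1qc, and C1qa was called lower with TMM (-1.23).

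PGC1b was called at none of the C1q promoters and was called lower at 3 other C1q regions. Its log2 fold change was -0.62 at the C1qa and -0.25 at the C1qb promoter (adjusted p = 0.218 and 0.617). At the C1qc promoter PGC1b was 69.3 and 89.7 with Veh and 81.9 and 58.3 with KLA (log2 fold change -0.20 ± 0.30 SE, adjusted p = 0.665). At C1qc -1237, the place where p300 fell as well, it was 40.5 and 42.8 with Veh and 5.46 and 10.9 with KLA (log2 fold change -2.25 ± 0.46 SE, adjusted p = 0.00157). Lower calls also came past the 3′ end of C1qb, at +7405 (log2 fold change -1.40 ± 0.46 SE, adjusted p = 0.0342), and within C1qa, at +1529 (log2 fold change -2.24 ± 0.79 SE, adjusted p = 0.0469). In the other PGC1b experiment, with DMSO, C1qc -1220 was 38.2 and 55.4 with DMSO_Veh and 47.4 and 28.3 with DMSO_KLA (log2 fold change -0.31 ± 0.54 SE, adjusted p = 0.752). The C1qa promoter there had log2 fold change -1.32 ± 0.55 SE, adjusted p = 0.0959, and TMM called it lower (-1.73). The difference between both experiments was not tested.

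p65 at the C1q promoters rose by less than 2-fold in terms of library totals, with log2 fold changes of 0.74, 0.72 and 0.33 for C1qa, C1qb and C1qc. All 3 lay under the median of all p65 regions (1.46) and turned negative with TMM. Within C1qc, at +1559, p65 was 31.5 and 27.03 with Veh and 4.67 and 10.3 with KLA (log2 fold change -1.96 ± 0.56 SE, adjusted p = 0.00983). Fosl2 changes at C1qa, C1qb and C1qc, of -1.03, -0.70 and -0.57, did not pass the test. The only C1q region called higher was ERK1 at C1qb +4680, with 32 tags under KLA and 3 under Veh, a ratio of 10.3 (95% exact interval 3.23 to 52.8), and TMM did not call it.

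C3 gained NCoR, HDAC3, PGC1b, p65 and p300 at its promoter with KLA. NCoR there was 13.1 and 20.0 with Veh and 54.3 and 49.8 with KLA (log2 fold change 1.64 ± 0.41 SE, adjusted p = 0.00816). HDAC3 was 16.004 and 22.1 with Veh and 41.6 and 87.8 with KLA (log2 fold change 1.69 ± 0.46 SE, adjusted p = 0.000996), and 1.11 on the log2 scale without the second KLA library, which stood apart (adjusted p = 0.0121). PGC1b was 7.64 and 5.11 with Veh and 31.7 and 32.6 with KLA (log2 fold change 2.34 ± 0.50 SE, adjusted p = 0.00216). No KLA library came as low as a Veh library in these 3. p65 was 32.4 and 59.7 with Veh and 186 and 246 with KLA (log2 fold change 2.23 ± 0.30 SE, adjusted p = 9.65e-05), and p300 28.2 and 30.2 with Veh and 92.6 and 104 with KLA (log2 fold change 1.75 ± 0.24 SE, adjusted p = 1.46e-05). The p65 rise was above the median of all p65 regions (1.46) and was called with TMM too (1.02). The C3 promoter region of Fosl2, centred at -101, was 46.6 and 50.3 with Veh and 55.9 and 131 with KLA (log2 fold change 0.96 ± 0.80 SE, adjusted p = 0.474), and ERK1 had no region at C3.

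At the intergenic site 3.6 kb upstream of C3, whose NF-kB matches are printed above, the factors parted. p65 rose from 17.5 and 10.3 to 59.4 and 54.7 (log2 fold change 2.03 ± 0.42 SE, adjusted p = 0.00162), a call that TMM did not keep. p300 was 26.3 and 25.6 with Veh and 23.5 and 34.6 with KLA (log2 fold change 0.16 ± 0.37 SE, adjusted p = 0.716), so its libraries overlapped between groups. NCoR was 19.1 and 2.35 with Veh and 42.1 and 27.7 with KLA (log2 fold change 1.69 ± 0.67 SE, adjusted p = 0.0601) and HDAC3 18.2 and 20.5 with Veh and 28.1 and 31.6 with KLA (log2 fold change 0.61 ± 0.54 SE, adjusted p = 0.383). PU.1 had its C3 region elsewhere, at +4566 in the gene, and its log2 fold change there was -0.39.

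Cfb was all but unbound with Veh and bound by 5 factors with KLA. NCoR at its promoter (chr17:34862538-34862745) was 0 and 3.53 with Veh and 84.2 and 96.1 with KLA, 3 tags against 243, a ratio of 51.0 (95% exact interval 17.2 to 248.9). HDAC3 was 0 and 0 with Veh and 83.2 and 135 with KLA, at least 44.1-fold higher against a floor of 3 tags per library. p65 was 0.876 and 0 with Veh and 179.6 and 216 with KLA, 1 tag against 585, a ratio of 438 (78.3 to 17324). In each of these the Veh libraries held next to nothing, and these intervals and floors cover counting error only.

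The coactivators did the same at the Cfb promoter. PGC1b was 0 and 1.39 with Veh and 32.8 and 23.5 with KLA, a ratio of 34.2 (11.2 to 170). p300 was 3.13 and 3.29 with Veh and 144 and 133 with KLA (log2 fold change 5.40 ± 0.33 SE, adjusted p = 1.65e-09). All 11 Cfb tests over the 8 factors were called higher, 10 of them with TMM. Peak lists were merged over Veh and KLA, so Cfb regions with 0 to 3 tags with Veh could enter only through KLA libraries. Their higher calls were thus set in advance. At a site about 3.6 kb upstream, inside C2, p65 was 0 and 0 with Veh and 44.1 and 30.1 with KLA, at least 13.3-fold higher. p300 there was 1.25 and 0 with Veh and 58.8 and 62.7 with KLA, a ratio of 94.6 (25.9 to 786). Fosl2, PU.1 and ERK1 had no region assigned to Cfb.

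C2 rose at sites within and upstream of the gene. At +2417 NCoR was 7.17 and 7.06 with Veh and 62.4 and 45.7 with KLA (log2 fold change 2.90 ± 0.48 SE, adjusted p = 0.000935). HDAC3 at +2397 was 6.55 and 17.7 with Veh and 54.5 and 111 with KLA (log2 fold change 2.67 ± 0.46 SE, adjusted p = 1.16e-07), and Fosl2 at +2424 12.7 and 5.24 with Veh and 74.5 and 77.2 with KLA (log2 fold change 3.09 ± 0.97 SE, adjusted p = 0.0135). The Fosl2 value was the only member call of that factor, and its KLA libraries were close to each other here. It was 3.14 without the first KLA library, which stood apart (adjusted p = 1.28e-05), and was lost without either Veh library (adjusted p = 0.403 and 0.798). p65 at +2398 was 3.50 and 5.59 with Veh and 72.1 and 81.4 with KLA (log2 fold change 4.06 ± 0.47 SE, adjusted p = 3.24e-05), and p300 at +2426 25.1 and 18.4 with Veh and 69.1 and 68.6 with KLA (log2 fold change 1.66 ± 0.29 SE, adjusted p = 0.000141).

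A further C2 site 5.6 kb upstream rose for NCoR, HDAC3, p65 and p300. Its p300 level was 0 and 5.26 with Veh and 42.5 and 60.5 with KLA (log2 fold change 4.28 ± 0.63 SE, adjusted p = 2.33e-05) and its HDAC3 level 6.55 and 7.19 with Veh and 36.3 and 54.4 with KLA (log2 fold change 2.67 ± 0.59 SE, adjusted p = 3.91e-05). PU.1, PGC1b and p300 had a region at -1.4 kb that was not called for any of them, with log2 fold changes of -0.03, -0.66 and 0.46. So C2 held sites that rose and a site that did not, within a few kb.

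**Figure D1:**
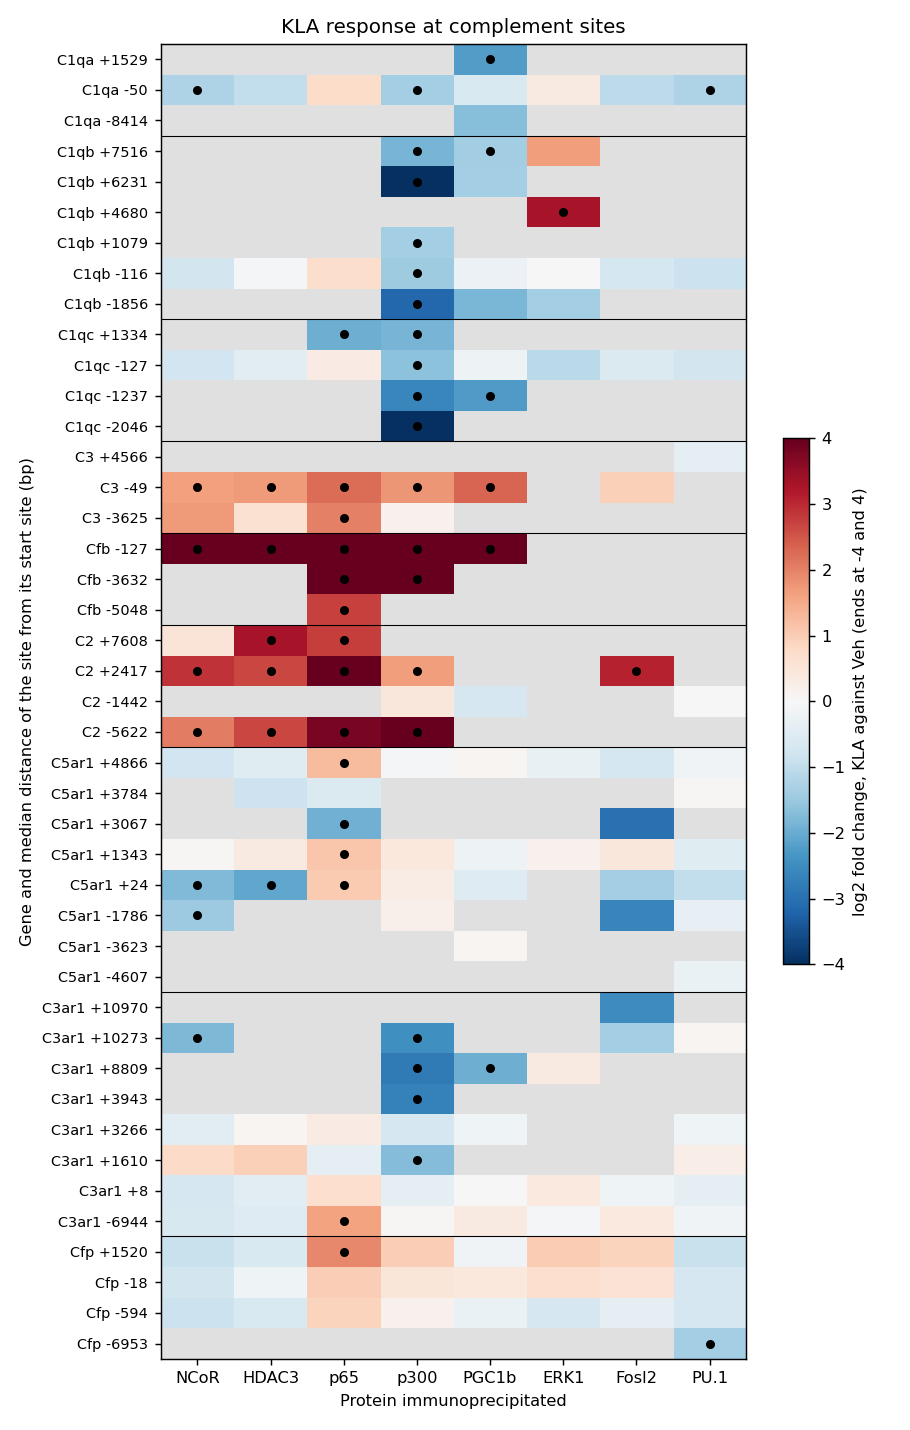
Log2 fold change of KLA against Veh for the 43 sites tested in at least 1 of the 8 factors, by gene and distance from the start site, with blank cells where a factor has no region. The rows of Cfb and C2 are higher in most factors, and the p300 column is lower at C1q and at the 3′ sites of C3ar1.

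The receptor genes lost NCoR and HDAC3 at 1 promoter and p300 at the 3′ end of the other. At the C5ar1 promoter NCoR was 189 and 84.7 with Veh and 38.1 and 42.9 with KLA (log2 fold change -1.75 ± 0.36 SE, adjusted p = 0.00325). HDAC3 was 127 and 141 with Veh and 29.3 and 35.1 with KLA (log2 fold change -2.08 ± 0.40 SE, adjusted p = 1.72e-06), with the groups far apart. p300 there was 87.1 and 71.6 with Veh and 81.3 and 116 with KLA (log2 fold change 0.31 ± 0.22 SE, adjusted p = 0.224), and its groups overlapped. PU.1 fell from 167 and 179 to 89.0 and 85.4, just short of 2-fold (log2 fold change -0.98 ± 0.12 SE, adjusted p = 7.06e-13). PGC1b was 69.3 and 63.2 with Veh and 55.7 and 37.8 with KLA (log2 fold change -0.53 ± 0.32 SE, adjusted p = 0.251).

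p65 was called higher at 3 C5ar1 regions, +4866 (log2 fold change 1.25 ± 0.21 SE, adjusted p = 0.00046), +1357 (log2 fold change 1.10 ± 0.21 SE, adjusted p = 0.000907) and +84 (log2 fold change 1.05 ± 0.26 SE, adjusted p = 0.00459). All 3 rises were smaller than the median of all p65 regions, and with TMM the log2 fold changes were -0.12 at +1357 and -0.18 at +84. Another, at +3076, was lower, with 21.9 and 27.03 with Veh and 7.35 and 5.47 with KLA (log2 fold change -1.91 ± 0.55 SE, adjusted p = 0.00977). The site at +4.9 kb, in an intron, had 291 and 253 with Veh and 259.9 and 257 with KLA tags per 10 M of p300 and 192 and 220.3 with Veh and 177 and 192 with KLA of PU.1, neither of them called. At -1786 NCoR was 29.9 and 24.7 with Veh and 13.0 and 6.92 with KLA (log2 fold change -1.46 ± 0.52 SE, adjusted p = 0.0386).

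C3ar1 had 10 p300 regions, of which 7 fell. These 7 were all at +1188 or farther in, and the promoter fell by less than 2-fold. At +8676, near the 3′ end, p300 was 81.5 and 93.3 with Veh and 10.2 and 14.6 with KLA (log2 fold change -2.81 ± 0.31 SE, adjusted p = 1e-06). At +9180, past the end of the gene, it was 32.6 and 55.2 with Veh and 2.05 and 5.40 with KLA (log2 fold change -3.54 ± 0.52 SE, adjusted p = 2.56e-05), and at +3943 19.4 and 25.6 with Veh and 4.09 and 2.70 with KLA (log2 fold change -2.70 ± 0.55 SE, adjusted p = 0.000487). With few tags left under KLA, +9180 and +3943 entered the merged peak list through Veh, so a large fall there was set in advance. The promoter kept high levels of 265 and 247 with Veh and 196 and 195 with KLA (log2 fold change -0.39 ± 0.14 SE, adjusted p = 0.024). PGC1b at +8809 was 54.6 and 46.5 with Veh and 12.0 and 13.7 with KLA (log2 fold change -1.95 ± 0.40 SE, adjusted p = 0.00168), and NCoR at +10085 31.1 and 31.8 with Veh and 8.91 and 8.99 with KLA (log2 fold change -1.80 ± 0.48 SE, adjusted p = 0.0112). These 3′ sites lie close to the end of a neighbouring gene as well.

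Upstream of C3ar1, at -6967, p65 was the only factor called. It was 148 and 176 with Veh and 462 and 530.2 with KLA (log2 fold change 1.61 ± 0.19 SE, adjusted p = 3.74e-05), against a median of 1.46 over all p65 regions, and with TMM it was 0.39. p300 was 347 and 279 with Veh and 343 and 301 with KLA and PU.1 164 and 204 with Veh and 184 and 145 with KLA, with log2 fold changes of 0.04 and -0.15. NCoR at -6943 was 311 and 401 with Veh and 245 and 212 with KLA (log2 fold change -0.64 ± 0.19 SE, adjusted p = 0.0191). At the C3ar1 promoter, where the NF-kB and AP-1 matches stand side by side, p65 was 139 and 201 with Veh and 264 and 276 with KLA (log2 fold change 0.67 ± 0.22 SE, adjusted p = 0.0192) and Fosl2 337 and 217 with Veh and 139.7 and 344 with KLA (log2 fold change -0.19 ± 0.67 SE, adjusted p = 0.894).

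Cfp, on the X chromosome, had few calls. Among its 31 tests, p65 at +1602 was called higher, with 54.3 and 59.7 with Veh and 212 and 222 with KLA (log2 fold change 1.93 ± 0.23 SE, adjusted p = 3.73e-05), and TMM did not call it. PU.1 at -6953, inside an intron of another gene, was called lower, with 45.0 and 51.7 with Veh and 24.2 and 13.4 with KLA (log2 fold change -1.36 ± 0.24 SE, adjusted p = 2.15e-07), and TMM did not call that either. p300 at +1550 was 60.8 and 84.1 with Veh and 153 and 133 with KLA (log2 fold change 0.99 ± 0.20 SE, adjusted p = 0.000479), just under 2-fold. At the promoter NCoR was 105 and 95.3 with Veh and 76.9 and 43.6 with KLA (log2 fold change -0.74 ± 0.31 SE, adjusted p = 0.0725) and HDAC3 88.0 and 78.5 with Veh and 61.0 and 91.3 with KLA (log2 fold change -0.16 ± 0.38 SE, adjusted p = 0.773).

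In terms of library totals, NCoR was lower with ERKi_KLA than with KLA over the genome, and the members went with it. Of the tags of each library, 34.16 and 33.32% lay in regions with KLA and 15.79 and 14.97% with ERKi_KLA. The part of this difference in the lower calls was not tested. Of 24 member regions 12 were lower with ERKi_KLA than with KLA and 1 was higher, and of all regions 48.6% were lower and 0.634% higher. The median log2 fold change was -1.21 over members and -1.20 over all regions. TMM shifted the median of all regions by 1.16 and left 1 member call, which was higher. The KLA libraries are those compared with Veh above. The ERKi_KLA libraries carry another date in the labels than the KLA libraries, so ERK inhibition and the date cannot be told apart. The labels name no DMSO for these KLA libraries, as they do for the PGC1b controls, so a difference in solvent cannot be told apart either.

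The one member that rose was the site upstream of C3. NCoR at -3621 was 19.1 and 5.88 with Veh, 46.2 and 35.3 with KLA and 80.3 and 84.5 with ERKi_KLA (log2 fold change 1.02 ± 0.39 SE, adjusted p = 0.0408). With TMM the rise was 2.19 on the log2 scale, adjusted p = 0.00429. At the C3 promoter NCoR was 54.3 and 49.8 with KLA and 31.3 and 21.5 with ERKi_KLA (log2 fold change -0.97 ± 0.42 SE, adjusted p = 0.0615). With TMM its log2 fold change was 0.19, adjusted p = 0.806. Promoter and upstream site thus went opposite ways by library totals but not with TMM. That difference was not tested.

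Among the regions that fell, C1qa had 343 and 383 with Veh, 161 and 149 with KLA and 52.4 and 55.2 with ERKi_KLA (log2 fold change -1.52 ± 0.21 SE, adjusted p = 0.000156). The Cfb promoter had 84.2 and 96.1 with KLA and 40.6 and 12.9 with ERKi_KLA (log2 fold change -1.75 ± 0.50 SE, adjusted p = 0.0103). C2 +2417 had 62.4 and 45.7 and 21.1 and 13.8 (log2 fold change -1.62 ± 0.46 SE, adjusted p = 0.0103). In these 3 regions every ERKi_KLA library was under every KLA library. All 4 Cfp regions and the C1qb and C1qc promoters were called lower too. At C5ar1 -1786 the ratio was 7.58 (2.32 to 39.1), from 26 tags with KLA to 3. The C5ar1 promoter had log2 fold change 0.05 ± 0.36 SE, adjusted p = 0.909.

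**Figure D2:**
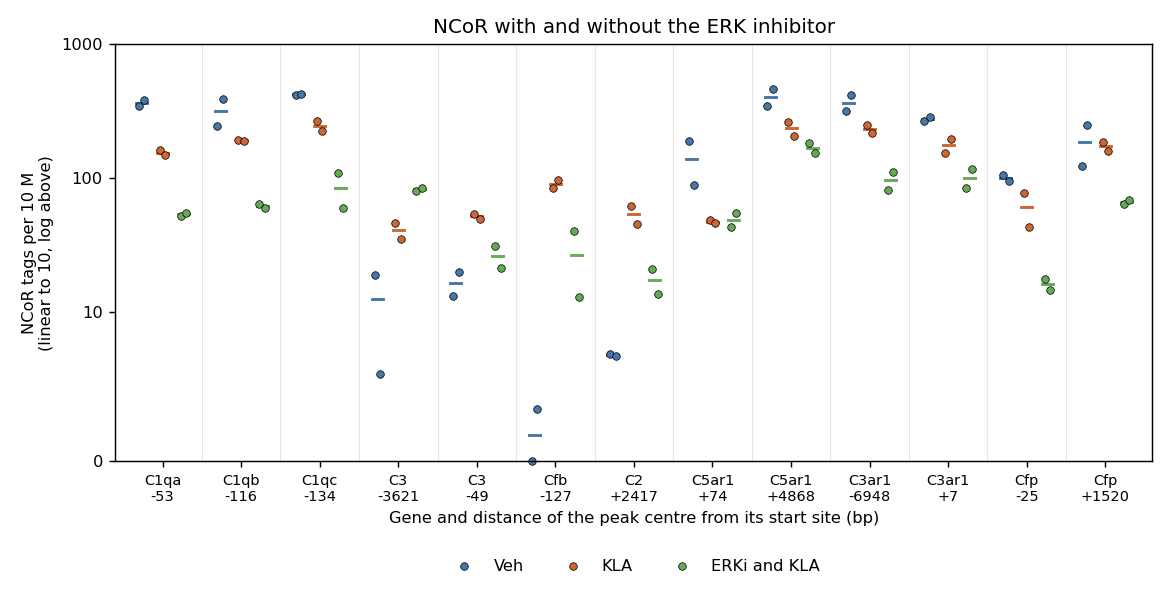
NCoR tags per 10 M at the leading region of each gene and the C3 upstream site, with Veh, KLA and ERKi_KLA (points are libraries, bars are means). The C3 site at -3621 is the one at which the ERKi_KLA libraries, near 80 tags per 10 M, lie above those with KLA.

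PGC1b in the DMSO experiment rose with KLA at C3 and C2. Of 22 member regions 3 were called higher and 1 lower, with 16.4% and 1.23% of all regions called, and TMM (median shift -0.47) gave 2 and 3. The C3 promoter was 7.31 and 14.6 with DMSO_Veh and 45.4 and 58.1 with DMSO_KLA (log2 fold change 2.30 ± 0.60 SE, adjusted p = 0.00875). C2 +2392 was 10.6 and 13.1 and 43.4 and 40.2 (log2 fold change 1.82 ± 0.61 SE, adjusted p = 0.0365), and C3ar1 +9021 53.6 and 111 and 1.97 and 40.2 (log2 fold change -1.86 ± 0.65 SE, adjusted p = 0.0482). This table has no Cfb region. Without the first DMSO_Veh library no member region was called, and without the second DMSO_KLA library 1 was.

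The site upstream of C3 had its highest PGC1b level with ERKi_KLA, and the difference from DMSO_KLA was not called. PGC1b at -3635 was 0 and 0 with DMSO_Veh, 0 and 22.3 with DMSO_KLA and 78.2 and 63.4 with ERKi_KLA. Its DMSO_KLA tags all came from 1 library, and the group was at least 2.91-fold above a floor of 3 tags per library. Listed peaks had to be reproducible between libraries, so this region entered through ERKi_KLA. That its level was highest there was thus set in advance. Between ERKi_KLA and DMSO_KLA the test gave log2 fold change 2.55 ± 0.82 SE, adjusted p = 0.158. With edgeR 0 of the 22 member regions were called in that comparison, where 0.108% of all regions were higher and 0.178% lower. There were 6 with an unadjusted p under 0.05, and DESeq2 called 1. At the C1qc promoter PGC1b was 107 and 80.4 with DMSO_KLA and 139 and 60.8 with ERKi_KLA (log2 fold change 0.09 ± 0.39 SE, adjusted p = 0.94).

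H3K27ac was measured with and without NCoR in 5 member regions, at C1qb, C1qc, C3ar1 and C5ar1. C3, Cfb, C2, C1qa and Cfp had none in this table. KLA raised H3K27ac at the C5ar1 promoter in WT, from 29.0 and 17.8 to 43.4 and 65.5 (log2 fold change 1.23 ± 0.32 SE, adjusted p = 0.00521). It was the 1 member region called, with 6.49% of all regions higher and 3.72% lower, and the call was lost without the second Veh or the second KLA library. In NKO the same promoter was 37.6 and 34.2 with Veh and 36.1 and 41.0 with KLA (log2 fold change 0.10 ± 0.32 SE, adjusted p = 0.879). The difference of the 2 responses was -1.13 on the log2 scale, adjusted p = 0.231.

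The intron of C5ar1 was the member site at which the genotypes differed. At +4907 H3K27ac was 25.2 and 33.6 in WT with Veh and 49.7 and 55.1 with KLA. In NKO it was 53.8 and 34.8 with Veh and 19.1 and 27.1 with KLA. So both KLA libraries lay above those with Veh in WT and below them in NKO. The difference of the responses was called (log2 difference -1.76 ± 0.45 SE, adjusted p = 0.0425), as 1 of 5 member regions, with 0.670% of all regions lower and 0.0270% higher. NKO was lower than WT with KLA (log2 fold change -1.19 ± 0.32 SE, adjusted p = 0.0496), where 0.389% of all regions were lower and 0.400% higher. TMM gave -1.42 for the difference of the responses at C5ar1 +4907, adjusted p = 0.232, and the DESeq2 Wald test -1.43, adjusted p = 0.213. Without the first WT KLA or the second NKO Veh library it was still called (-1.84 and -2.06). Leaving out any of the other 6 libraries lost the call, with -1.43 to -2.02 and adjusted p = 0.0682 to 0.278. The difference with KLA was lost on leaving out any single library of the 4.

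The remaining regions gave no call. With Veh, NKO against WT had 0 of 5 member regions called by edgeR, 0 by DESeq2 and 0 at an unadjusted p under 0.05, and 0.973% of all regions were higher and 0.0270% lower. In NKO, KLA against Veh had 0 calls, 3 at an unadjusted p under 0.05 and 0 by DESeq2, with 2.75% higher and 7.96% lower over all regions. The log2 fold change of C1qb was 0.82 in WT and 0.92 in NKO, adjusted p = 0.155 and 0.119. That of C1qc was -0.44 and -0.77, adjusted p = 0.319 and 0.0582. H3K27ac at the promoter of Ncor1, 51.7 and 44.8 tags per 10 M in WT and 58.3 and 70.2 in NKO with Veh, does not measure the deletion.

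**Figure D3:**
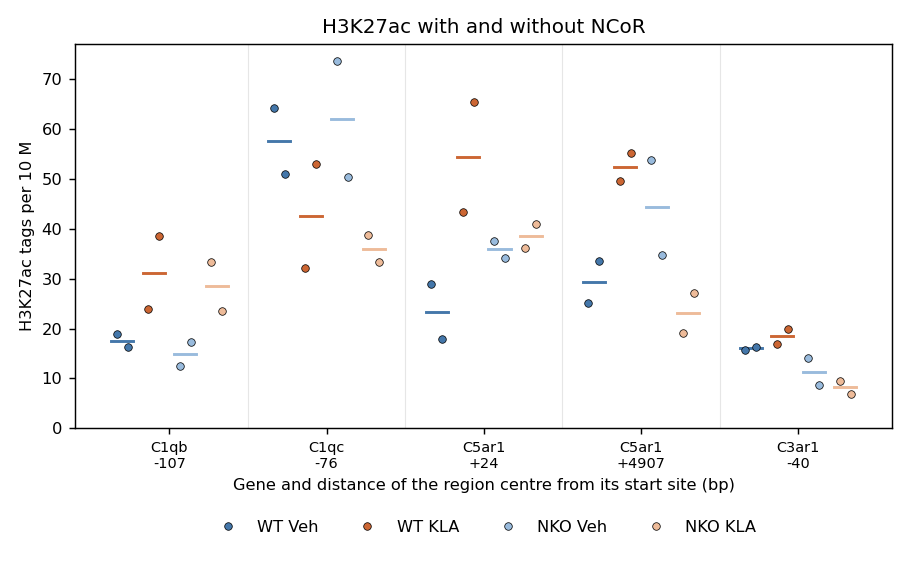
H3K27ac tags per 10 M at the 5 member regions in WT and NKO BMDMs with Veh and KLA (points are libraries, bars are means). At C5ar1 +4907 KLA libraries lie above Veh libraries in WT and below them in NKO.

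The table with and without PGC1b held 9 member regions, of 1000 bp each, at C1qa, C1qb, C1qc, C5ar1, C3ar1 and Cfp. In Pgc1b flox BMDMs KLA changed none of them by more than 2-fold. edgeR called 0, 4 had an unadjusted p under 0.05 and DESeq2 called 0, with 5.22% of all regions higher and 25.6% lower. In Pgc1b flox Cre BMDMs 3 of the 9 fell and 0 rose, a share near the background, where 32.5% of all regions fell and 4.18% rose. TMM shifted the medians of all regions by 0.43 and 0.61 and called no member region in either genotype.

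Those 3 were C1qa, C1qc and the intron of C5ar1. At C1qa H3K27ac was 104 and 109 with Veh and 51.3 and 42.3 with KLA in Pgc1b flox Cre (log2 fold change -1.19 ± 0.20 SE, adjusted p = 1.1e-08), and 105 and 108 and 75.3 and 76.3 in Pgc1b flox (log2 fold change -0.49 ± 0.18 SE, adjusted p = 0.013). At C1qc it was 231 and 217 and 100.4 and 95.1 in Pgc1b flox Cre (log2 fold change -1.20 ± 0.13 SE, adjusted p = 1.14e-17), and 223 and 235 and 180.0 and 166 in Pgc1b flox (log2 fold change -0.40 ± 0.12 SE, adjusted p = 0.00213). The C1qb promoter was not called in either genotype, with log2 fold change -0.56 ± 0.10 SE, adjusted p = 1.59e-08 in Pgc1b flox Cre and log2 fold change -0.09 ± 0.09 SE, adjusted p = 0.395 in Pgc1b flox. With TMM the log2 fold changes in Pgc1b flox Cre were -0.57 at C1qa, -0.58 at C1qc and 0.05 at C1qb. The difference of the responses was -0.70 at C1qa and -0.80 at C1qc on the log2 scale (adjusted p = 0.0555 and 0.000212).

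C5ar1 +4962 was the member site with the largest difference between these genotypes. Its level was 314 and 356 with Veh and 245 and 252 with KLA in Pgc1b flox. In Pgc1b flox Cre it was 326 and 329.6 with Veh and 105 and 117 with KLA. The Veh libraries of both genotypes overlapped in range, and the KLA libraries were far apart. The difference of the responses was called (log2 difference -1.13 ± 0.15 SE, adjusted p = 1.84e-11), as 1 of 9 member regions, with 4.60% of all regions lower and 0.770% higher. TMM gave -0.95, adjusted p = 8.13e-08, under the 2-fold minimum. This is the same intron site that differed between NKO and WT, and it holds regions of all the factors.

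With KLA, Pgc1b flox Cre was lower than Pgc1b flox at all 9 member regions at adjusted p under 0.05, as were 41.5% of all regions. With TMM 7 of the 9 passed. The C1qa promoter (-0.31, adjusted p = 0.335) and the C5ar1 promoter (0.15, adjusted p = 0.358) did not, and at the latter the direction turned. The fall was more than 2-fold at 3 of them, where 6.81% of all regions were lower and 0.702% higher, and TMM (median shift 0.39) called none. C3ar1 +3252 was 413 and 379.6 in Pgc1b flox and 190.0 and 189 in Pgc1b flox Cre (log2 fold change -1.06 ± 0.10 SE, adjusted p = 4.96e-25). The Cfp promoter was 271 and 303 and 135 and 135 (log2 fold change -1.09 ± 0.11 SE, adjusted p = 5.36e-19). The C5ar1 promoter differed least, with 263 and 278 and 237 and 220.1 (log2 fold change -0.25 ± 0.10 SE, adjusted p = 0.043). The summed level of the macrophage markers in this table moved alongside, at 3052 to 3104 in Pgc1b flox and 1572 to 1605 in Pgc1b flox Cre with KLA, and its part was not tested.

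With Veh, Pgc1b flox Cre against Pgc1b flox gave no call among the members. edgeR called 0 of 9 regions, 4 had an unadjusted p under 0.05 and DESeq2 called 0, with 0.107% of all regions higher and 0.290% lower. C3ar1 +3252 had the smallest adjusted p (log2 fold change -0.33 ± 0.09 SE, adjusted p = 0.00638). The macrophage markers summed to 2653 to 2703 in Pgc1b flox and 2279 to 2282 in Pgc1b flox Cre.

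**Figure D4:**
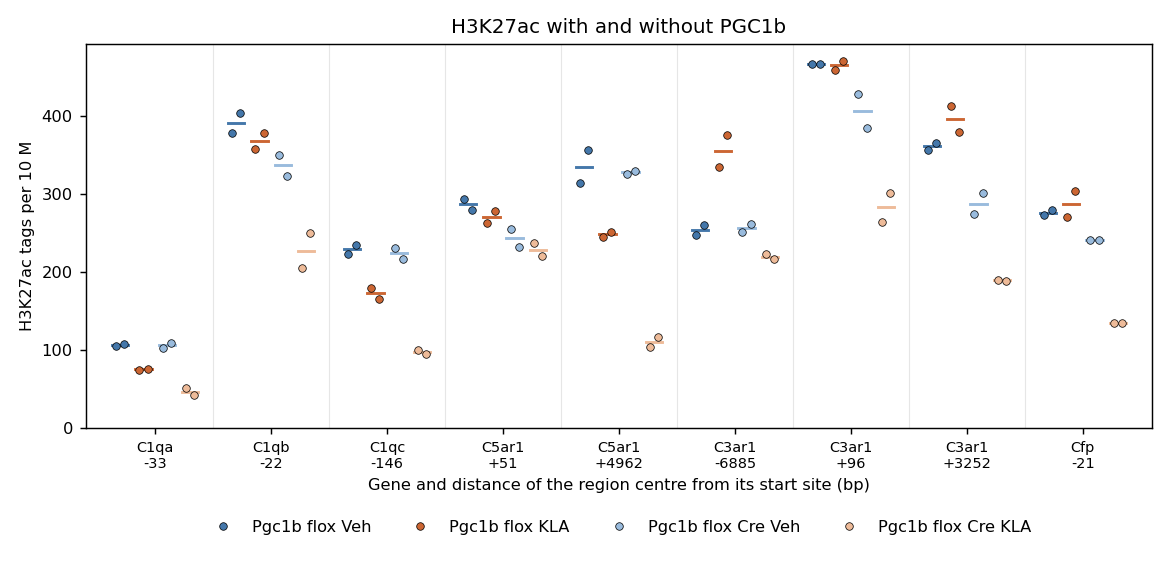
H3K27ac tags per 10 M at the 9 member regions in Pgc1b flox and Pgc1b flox Cre BMDMs with Veh and KLA (points are libraries, bars are means). The mean of Pgc1b flox Cre with KLA is the lowest of the 4 groups at each region. Its libraries lie far below the others at C5ar1 +4962, and at the C5ar1 promoter the 4 groups lie close together.

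By library totals, inhibition of HDAC3 changed no member region by more than 2-fold. Of 9 regions edgeR called 0, 4 had an unadjusted p under 0.05 and DESeq2 called 1, while 26.9% of all regions were higher with RGFP966_KLA than with DMSO_KLA and 9.53% lower. The C1qb promoter came nearest, with 494 and 399 with DMSO_KLA and 268 and 226 with RGFP966_KLA (log2 fold change -0.86 ± 0.19 SE, adjusted p = 3.85e-05), and TMM called it (-1.04). C1qa went the other way, with 94.5 and 72.4 and 147 and 121 (log2 fold change 0.67 ± 0.23 SE, adjusted p = 0.00667). So 2 promoters of one gene cluster moved in opposite directions in the same libraries, by less than 2-fold in terms of library totals. C5ar1 +4962 was 259.7 and 184 and 263 and 223 (log2 fold change 0.12 ± 0.20 SE, adjusted p = 0.596).

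In the same table DMSO_KLA against DMSO_Veh had 0 of 9 calls by edgeR, 6 at an unadjusted p under 0.05 and 0 by DESeq2, with 6.73% of all regions higher and 28.1% lower. The C5ar1 promoter had the largest change, 399.5 and 420.4 with DMSO_Veh and 272 and 179 with DMSO_KLA (log2 fold change -0.85 ± 0.20 SE, adjusted p = 5.8e-05). In Pgc1b flox it was log2 fold change -0.08 ± 0.10 SE, adjusted p = 0.47, and in WT of the NCoR experiment the promoter had risen. The experiments differ in region width and genotype, and their values stand side by side without a test.

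During osteoclast differentiation p300 gained tags over nearly the whole table, and members followed in part. Of 10 member regions 5 were higher and 2 lower on Day4, with 62.2% of all regions higher and 0.248% lower, and medians of 1.14 and 1.84. TMM shifted the median by -1.56 and left the 2 lower calls. The summed level of the 5 osteoclast markers with a region was 87.3 and 94.1 on Day0 and 505 and 557 on Day4, and its part in the result was not tested. The lower regions were C5ar1 +1306, with 44.0 and 40.5 on Day0 and 16.6 and 11.3 on Day4 (log2 fold change -1.58 ± 0.57 SE, adjusted p = 0.0282), and C3ar1 +3311, with 47.5 and 31.9 and 11.7 and 15.9 (log2 fold change -1.55 ± 0.59 SE, adjusted p = 0.0343). These 2 receptor sites fell while the median region of the table rose.

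The C3ar1 promoter was 39.6 and 44.7 on Day0 and 108 and 110.0 on Day4 (log2 fold change 1.38 ± 0.36 SE, adjusted p = 0.00576). C2 -5594 was 4.395 and 0 and 21.5 and 48.8 (log2 fold change 3.50 ± 0.89 SE, adjusted p = 0.0054). C2 was thus higher at this upstream site both after KLA and, by library totals but not with TMM, on Day4. Without the second Day4 library 0 regions were called, and without the first 1. For ERK1, edgeR called 0 of 9 regions, 0 had an unadjusted p under 0.05 and DESeq2 called 0, with 2.33% of all regions higher and 0.0267% lower. ERK1 levels were spread widely, and the labels give the second Day4 library another date and replicate number than the other 3. At the C1qc promoter ERK1 was 23.2 and 29.4 on Day0 and 101 and 22.7 on Day4.

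The wider complement list, 48 further genes of the pathway, its regulators and its receptors, was counted in the same way. Its shares of called regions with KLA lay near those of all regions given above for most factors. For p65 54 of 90 regions were higher (60.0%, beside 57.0% of all regions) and 7 lower (7.78% and 5.43%), and for p300 52 of 125 were higher (41.6% and 42.1%) and 11 lower (8.80% and 12.9%). HDAC3 had 23 of 85 higher (27.1% and 27.5%) and 14 lower (16.5% and 11.3%), NCoR 18 of 92 higher (19.6% and 23.4%) and 16 lower (17.4% and 16.7%), and PGC1b 15 of 93 higher (16.1% and 16.4%) and 7 lower (7.53% and 6.35%). Fosl2 had 8 of 67 higher (11.9% and 11.4%) and 5 lower (7.46% and 4.19%), PU.1 7 of 85 higher (8.24% and 4.53%) and 17 lower (20.0% and 21.7%), and ERK1 2 of 50 in either direction (4.00%, beside 10.3% higher and 2.53% lower). Cd93, a receptor once described as a receptor of C1q, and Itgb2, the beta chain of the complement receptors CR3 and CR4, were called in the most comparisons, 17 each. At the Cd93 promoter NCoR fell from 214 and 248 to 41.3 and 37.4 tags per 10 M with KLA (log2 fold change -2.55 ± 0.23 SE, adjusted p = 5.62e-05). At the promoter of C1s1, a protease of the C1 complex, p65 rose from 8.76 and 2.80 to 192 and 252 (log2 fold change 5.22 ± 0.40 SE, adjusted p = 2.34e-06). Near Itgax, the alpha chain of CR4, PU.1 rose from 39.3 and 27.4 to 205 and 215 in a region 25 kb upstream (log2 fold change 2.63 ± 0.14 SE, adjusted p = 2.39e-37). These were the listed regions of lowest p for NCoR, p65 and PU.1.

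In the other comparisons the list had 45 of 95 NCoR regions lower with ERKi_KLA (47.4%, beside 48.6% of all regions) and 2 higher (2.11% and 0.634%). For PGC1b 0 of 109 regions were called with ERKi_KLA, and DMSO_KLA against DMSO_Veh had 19 higher (17.4% and 16.4%) and 0 lower. For H3K27ac, 12 of 36 regions fell with KLA in Pgc1b flox (33.3% and 25.6%) and 1 rose, and 17 fell in Pgc1b flox Cre (47.2% and 32.5%) and 0 rose. RGFP966_KLA gave 10 of 36 higher (27.8% and 26.9%) and 1 lower, and DMSO_KLA 11 lower (30.6% and 28.1%) and 1 higher. At Cd93 -48820 H3K27ac was 281 and 248 with DMSO_Veh, 56.3 and 42.9 with DMSO_KLA and 218 and 188 with RGFP966_KLA. In the table of WT and NKO, at most 2 of 27 regions were called in any comparison. One was Itgb2 +10545, an intron site, where the KLA response differed between NKO and WT by -1.77 ± 0.46 SE (adjusted p = 0.0424), next to -1.76 at C5ar1 +4907. On Day4 p300 had 20 of 38 higher (52.6% and 62.2%) and 0 lower, and ERK1 1 of 34 higher (2.94% and 2.33%).

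Promoters that went up and down with the members over the 8 libraries of WT and NKO were looked up by Pearson's r of H3K27ac among 9884 promoter regions. The closest to the C5ar1 promoter were Tnf (r = 0.969), Btbd19 and Babam2. Those closest to C1qc were Nup107 (0.972), Fahd1 and Abhd15, to C1qb Reps1 (0.960), Raly and Jag1, and to C3ar1 Gdi2 (0.989), Zfp119a and Stt3a. With 8 libraries and so many promoters a high r is a description of these libraries, which all points share.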

How the data were processed

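The deposited tables hold whole-number counts of tags per region, made by the authors from ChIP-seq reads aligned to mm10. HOMER and Bowtie2 are named in the submitters' processing notes, and their versions are not given in the sources used here. The authors counted at most 3 tags per position and pooled no replicates. For the factors, regions were reproducible peaks (IDR) merged over the conditions of a table. For H3K27ac they were ATAC-seq regions, in 2 tables windows of 1000 bp. A peak list made from the compared libraries favours regions that are high in at least 1 of them.

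Counts were compared with the edgeR 4.0.16 quasi-likelihood F-test in R 4.3.3, with the library totals in the file headers as offsets and all groups of a table in 1 fit, over every region with at least 4 tags (factors) or 16 tags (H3K27ac) in at least 1 library. P-values were Benjamini-Hochberg adjusted over all regions of a comparison, and 25 comparisons were made. Regions with an adjusted p under 0.05 and a change of more than 2-fold were called. SE is the absolute log2 fold change divided by the square root of F. Every fit was first tested on simulated data, where it recovered 35.5 to 81% of 200 changed regions. The share was lowest for PGC1b with DMSO_KLA (35.5%) and ERK1 with KLA (40.5%), so a region without a call may still have changed. Where a group held 0 to 3 tags, the ratio of summed tags with an exact Clopper-Pearson interval, or a floor of 3 tags per library, replaces the fitted value. Alternatives were TMM (edgeR), size factors of DESeq2 1.42.0 and its Wald test, no filter, other thresholds, a replicate block and leaving out each library. Regions named are each member's leading and promoter regions and those called, and, of the pathway list, the genes called most often and the region of lowest p in a comparison. The members and gene lists were chosen with earlier results of these data known. No column of other samples was present, and the 30 inputs were not analysed here.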

Additional observations from a re-analysis of the deposited data

Results flagged for a closer look

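Of the member regions, 2 had a KLA response of H3K27ac that differed between genotypes by a test of the difference itself, and both lie in the same intron of C5ar1. At +4907 the response in NKO was lower than in WT by -1.76 on the log2 scale (edgeR, adjusted p = 0.0425). H3K27ac stood at 25.2 and 33.6 tags per 10 M with Veh and 49.7 and 55.1 with KLA in WT, and at 53.8 and 34.8 and 19.1 and 27.1 in NKO. At +4962 the response in Pgc1b flox Cre was lower than in Pgc1b flox by -1.13 (adjusted p = 1.84e-11), with 314 and 356 with Veh and 245 and 252 with KLA in Pgc1b flox and 326 and 329.6 and 105 and 117 in Pgc1b flox Cre. Neither was called with TMM. At C5ar1 +4907 the call was also lost with the DESeq2 Wald test and on leaving out any of 6 of the 8 libraries (adjusted p = 0.0682 to 0.278), all but the first WT KLA and the second NKO Veh library. The WT libraries moved up at this site with KLA and the Pgc1b flox libraries down, and the summed macrophage markers fell with KLA in Pgc1b flox Cre too. Their part was not tested.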

How the results depend on the processing

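Counts are member regions called. Without a fold minimum, there were 15 for NCoR with KLA, 11 for PU.1, 1 for H3K27ac in NKO, and for H3K27ac of the PGC1b experiment 4 with KLA in Pgc1b flox, 7 in Pgc1b flox Cre, 1 between genotypes with Veh, 9 with KLA and 7 for the difference of responses, 6 for DMSO_KLA and 4 for RGFP966_KLA. TMM gave 3 for Fosl2, 0 for PU.1, 2 for p300 on Day4, 1 for NCoR with ERKi_KLA, 1 for H3K27ac in NKO, 1 for RGFP966_KLA, and 0 for the difference of responses of NKO and WT, for Pgc1b flox Cre with KLA, for its difference from Pgc1b flox with KLA and for the difference of their responses. DESeq2 size factors gave 4 for Fosl2 and otherwise the TMM counts, except 0 for H3K27ac in NKO. The DESeq2 Wald test gave 9 for p65, 5 for Fosl2, 0 for PU.1, 2 for p300 on Day4, 1 for PGC1b and 2 for NCoR with ERKi_KLA, 1 for RGFP966_KLA and 0 for the other H3K27ac comparisons that TMM or the block lost. With the replicate number as a block there were 0 for Fosl2, 0 for ERK1 with KLA, 2 for p300 on Day4 and 0 for NKO against WT with KLA and for the difference of their responses. Deviations of same-numbered libraries correlated between -0.027 and 0.026 over 31 pairs of groups, so no effect shared by same-numbered libraries was seen. Whether they came from the same animal or preparation cannot be told from these correlations. At an adjusted p under 0.01 there were 0 for Fosl2, ERK1, NKO against WT with KLA and their difference of responses, 2 for p300 on Day4, 1 for PGC1b with DMSO_KLA and 8 for NCoR with ERKi_KLA. The causes of these changes were not tested.

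Leaving out 1 library gave 4 to 12 regions for NCoR with KLA, 3 to 9 for HDAC3, 10 to 19 for p65, 0 to 8 for Fosl2, 1 to 4 for PU.1, 3 to 8 for PGC1b, 0 to 1 for ERK1, 21 to 24 for p300, 0 to 8 for p300 on Day4, 0 to 3 for PGC1b with DMSO_KLA, 7 to 14 for NCoR with ERKi_KLA, 0 to 1 for H3K27ac in WT, 0 to 2 in NKO, 0 to 0 for NKO against WT with KLA, 0 to 1 for the difference of responses, 0 to 2 for DMSO_KLA and 0 to 1 for RGFP966_KLA. The low counts came without the second KLA library for NCoR (4) and p65 (10), the first Veh library for HDAC3 (3), the second KLA library for PU.1 (1), the second Veh library for PGC1b (3) and the first KLA library for NCoR with ERKi_KLA (7). Single regions reversed as follows under TMM, size factors and the Wald test: p65 at C5ar1 +1357 (-0.12, -0.093, -0.093) and +84 (-0.18, -0.14, -0.14), p300 on Day4 at C1qc -132 (-0.47, -0.42, -0.40), C3ar1 +0 (-0.18, -0.13, -0.14) and Cfp -606 (-0.10, -0.053, -0.014), and NCoR with ERKi_KLA at Cfp -586 (0.0071, 0.020, 0.019). Fosl2 at Cfp -10 ranged from -7.22 to 1.51 on leaving out 1 library. At 4.30 to 21.5 M tags a library, changes in regions of few tags may not have been detectable, and these limits were not compared between factors.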
